A study of Homo sapiens with 80 samples.

Results

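The genes described here are 10 genes of the amino acid and integrated stress response: ATF4, DDIT3, TRIB3, CHAC1, ASNS, PSAT1, PHGDH, SESN2, SLC7A11 and ATF3. They were taken by symbol from the 43388 genes of the expression tables. The list was drawn up with earlier results of these data known, so counts of its genes beside shares of all genes are descriptions. All 10 were among the 25664 genes kept for testing in the larger experiment. In the integrated stress response, kinases that sense amino acid shortage, unfolded protein, heme shortage or viral RNA phosphorylate the translation factor eIF2. General protein synthesis then slows while the ATF4 mRNA is translated more, and ATF4 protein raises the transcription of genes for amino acid uptake, amino acid synthesis and redox balance. Because much of this control acts on ATF4 translation, the ATF4 transcript by itself is an incomplete measure of the pathway.

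RNA was measured during the differentiation of human pluripotent stem cells to cardiomyocytes, and the differentiations fall into a high and a low purity class by flow cytometry for cardiac troponin T at the end. The first experiment, called multi-omic in the labels, used the induced pluripotent line WTC11 and sequenced mRNA on the even days from 0 to 10 and on days 13 and 16. Its 25 high purity libraries were wells of 1 differentiation at passage 52 and its 31 low purity libraries were wells of 1 differentiation at passage 69, with 3 or 4 wells a day except 1 high purity well on day 10 and 2 on day 13. The second, RNA-only experiment used total RNA libraries of WTC11, of IMR90-4, another induced line, and of H9, an embryonic stem cell line, with 1 high and 1 low purity differentiation per line sampled once at each of 4 stages. Stage 1 was day 0, and stages 2, 3 and 4 fell 2 or 3, 4 or 5, and 6 or 7 days later. Their passages were 81 (high) and 69 (low) for WTC11, 55 (high) and 75 (low) for IMR90-4, and 58 (high) and 55 (low) for H9. All differentiations received the GSK3 inhibitor CHIR99021 from day 0 and then IWP2, a blocker of WNT secretion, in B27 supplement without insulin. In WTC11, IWP2 was added on day 2 and insulin was present from day 6; in the other lines these steps were on days 3 and 7. No genotype differed between the classes. Purity, passage and differentiation cannot be told apart in the multi-omic experiment, and its p-values measure the spread between wells of the same differentiation.

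Libraries held 6591851 to 18180381 reads in the multi-omic experiment and 17990882 to 40357968 in the RNA-only experiment. Levels are given as TPM, transcript abundance scaled by gene length and library total, which can be compared between genes within an experiment; the kits differed, so levels were not compared between experiments. ASNS was the most thinly covered of the 10 genes, with 2 to 39 reads per multi-omic library, and ATF4 the deepest at its minimum, with 887 to 3722. ASNS (chr7:97851677-97928441, GRCh38) overlaps CZ1P-ASNS, a read-through gene counted separately. How reads in both were counted is not given, so ASNS reads may have been split between the 2 entries or left uncounted. DDIT3 (chr12:57516588-57520517) overlaps MARS1 and SLC7A11 (chr4:138164097-138242349) overlaps SLC7A11-AS1, and whether reads were counted by strand is not given in the sources used here. The values of these 3 genes are uncertain to that extent.

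ATF4 and its C/EBP partners bind a composite element whose core was searched as TGATGNAA on both strands of the RefSeq promoter windows (GRCh38.p14, 250 bases before to 50 after a transcription start). Of 35116 windows of all genes, 3.62% held it. Windows were searched for 9 of the 10 genes, all but SLC7A11. These genes had 15 windows, of which 3 held a match, in ASNS, ATF3 and CHAC1. Windows of ATF4, DDIT3, TRIB3, PSAT1, PHGDH and SESN2 held none. The 60 bases around each match are shown because these 3 genes were called on day 8 (below), with the match in capitals. The ASNS stretch lies at chr7:97872443-97872502, minus strand, and its match begins 68 bases before the start. The ATF3 stretch lies at chr1:212565190-212565249, plus strand, with the match beginning 191 bases before the start. The CHAC1 stretch lies at chr15:40953236-40953295, plus strand, where the match is on the opposite strand and begins 209 bases before the start.
ASNS: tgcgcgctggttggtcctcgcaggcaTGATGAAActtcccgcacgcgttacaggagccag
ATF3: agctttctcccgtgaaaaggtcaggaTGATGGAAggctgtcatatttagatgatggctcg
CHAC1: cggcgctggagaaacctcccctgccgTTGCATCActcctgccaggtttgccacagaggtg
A match describes letters in a window and was not measured as a bound site. The endoplasmic reticulum stress element, searched by its consensus on both strands, was in 0.0769% of all windows and in none of these 9 genes. The antioxidant response element, TGACNNNGC, was in 13.3% of all windows and in 3 of the 15 windows of these 9 genes, all of TRIB3.

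On day 8 the genes were higher in the low purity wells, and the 2 classes stood apart in every one of the 10. SLC7A11, the cystine transporter subunit that feeds glutathione synthesis, was 10.9-fold higher in the low purity wells, CHAC1, an enzyme that degrades glutathione, 8.35-fold, and PSAT1, which makes phosphoserine, 5.88-fold. A gene is called here when its limma adjusted p is under 0.05 and its log2 fold change, on log2(TPM × scaling + 1), is at least 1 in size. On that rule 8 of the 10 genes were called lower in the high purity wells and 0 higher, where 12.2% of all genes were called and 7.5% were called lower. The median log2 fold change over the 10 genes was -1.64, against -0.03 over all genes tested. The folds and the separation above are of TPM without this scaling, and the folds are also without the +1. Without the scaling the median over all genes was -0.18 in place of -0.03. The +1 shrinks the limma differences further for genes at low TPM, such as CHAC1.

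ATF4 itself, the transcription factor of the pathway, was at 42.4, 38.0 and 35.9 TPM in the 3 high purity wells and 76.7, 63.7, 68.3 and 77.5 TPM in the 4 low purity wells. Every low purity well was above every high purity well, but the difference of -0.64 (SE 0.07, adjusted p = 1.13e-09) was under the fold threshold. DDIT3, which encodes CHOP, a factor linked to cell death under prolonged stress, was at 25.05, 38.0 and 29.5 TPM in the 3 high purity wells and 48.5, 48.2, 42.2 and 53.8 TPM in the 4 low purity wells. Its difference of -0.42 (SE 0.19, adjusted p = 0.0742) did not pass the test, and a p that misses the threshold does not show equal levels. These were the 2 genes not called on day 8.

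Among the other regulators, ATF3, a stress-induced factor of the same family, was at 6.29, 5.85 and 5.498 TPM in the 3 high purity wells and 36.3, 30.0, 29.4 and 31.4 TPM in the 4 low purity wells. The low purity wells were all above the high purity wells, by -2.04 (SE 0.17, adjusted p = 1.87e-13), high minus low. TRIB3, a pseudokinase that restrains ATF4 signalling, was at 4.50, 2.00 and 1.87 TPM in the 3 high purity wells and 10.7, 12.8, 13.8 and 11.9 TPM in the 4 low purity wells. Its highest high purity well was below its lowest low purity well, and the difference was -1.68 (SE 0.21, adjusted p = 3.36e-09). SESN2, which represses mTORC1 when leucine is short, was at 11.8, 10.4 and 9.21 TPM in the 3 high purity wells and 33.3, 29.9, 32.4 and 31.6 TPM in the 4 low purity wells. The SESN2 groups were also apart, with a difference of -1.31 (SE 0.10, adjusted p = 7.63e-15).

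Among the metabolic genes, PHGDH, the enzyme that opens serine synthesis, was at 33.1, 26.8 and 22.0 TPM in the 3 high purity wells and 135, 121, 119 and 134 TPM in the 4 low purity wells. PSAT1, the next enzyme, was at 50.2, 35.5 and 31.3 TPM in the 3 high purity wells and 236, 209.7, 204 and 269 TPM in the 4 low purity wells. For both enzymes the classes were separated by a wide gap, with differences of -1.97 (SE 0.09, adjusted p = 7.01e-22) for PHGDH and -2.32 (SE 0.13, adjusted p = 3.26e-19) for PSAT1. SLC7A11 was at 5.40, 5.21 and 3.95 TPM in the 3 high purity wells and 57.3, 48.0, 48.1 and 58.9 TPM in the 4 low purity wells, the largest difference of the 10 genes at -3.0 (SE 0.14, adjusted p = 4.78e-22). CHAC1 was at 0.585, 0.211 and 0.559 TPM in the 3 high purity wells and 3.78, 3.87, 3.49 and 3.96 TPM in the 4 low purity wells, and differed by -1.59 (SE 0.18, adjusted p = 3.90e-10). ASNS, which makes asparagine, was at 0.295, 0.560 and 0.224 TPM in the 3 high purity wells and 2.86, 3.19, 1.89 and 2.41 TPM in the 4 low purity wells, with a difference of -1.28 (SE 0.20, adjusted p = 6.61e-07). The ASNS and CHAC1 values in the high purity wells rest on 4 to 9 and 6 to 22 reads, and the +1 in the scale understates the change of genes at such levels.

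**Figure D1:**
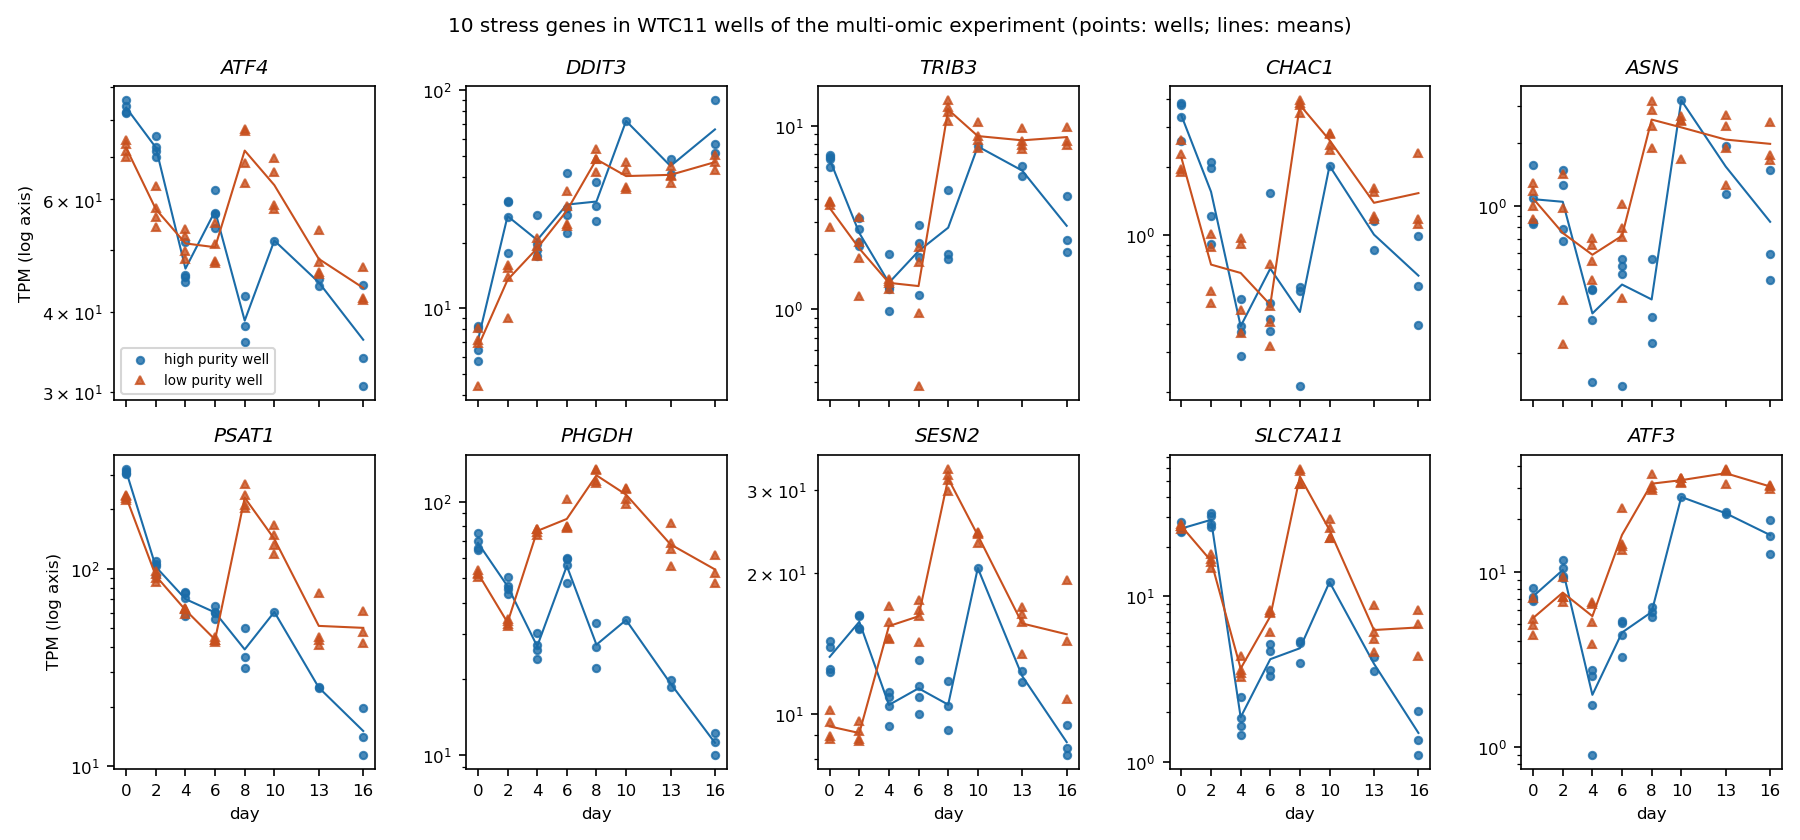
TPM (log axis) against day for the 10 genes in the multi-omic WTC11 wells; circles are high purity wells, triangles low purity wells, and lines join the means. On day 8 every low purity well lies above every high purity well in all 10 panels, with SLC7A11 at 48.0 to 58.9 against 3.95 to 5.40 TPM.

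On day 8, then, 10 of 10 genes were separated with low above high; the share of all genes so separated was 30.7% in that direction, 11.5% in the other and 42.2% in either. The exact two-sided permutation test gave p = 0.02857 for each, the smallest that 3 wells against 4 can give. Every low purity well was higher in 0 of the 10 genes at day 0 (5.16% of all genes) and at day 2 (18.3%). That number was 5 at day 4 (15.8%), 4 at day 6 (14.5%), 8 at day 13 (32.5%) and 8 at day 16 (32.1%). Every high purity well was higher in 5 genes at day 0 (16.7%) and 5 at day 2 (15.7%), in 0 at day 4 (15.9%), 1 at day 6 (16.2%), 0 at day 13 (15.0%) and 1 at day 16 (15.6%). In either direction the shares of all genes on these 6 days were 21.8%, 34.0%, 31.7%, 30.7%, 47.5% and 47.6%.

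The wells also differed in markers of other cell types on that day. The summed TPM of 7 stromal and fibroblast markers was 4707 to 5693 in low and 406 to 475 in high purity wells, and 7 of 7 were called higher in low purity. The sum of 5 epicardial markers was 389.5 to 476 against 6.404 to 9.28, with 4 of 5 called. The sum of 9 cardiomyocyte markers was 5768 to 9031 in low and 14640.0 to 17070.0 in high purity wells, with 6 of 9 called higher in high purity, which matches the labelled classes. Of 5 endoderm markers tested 3 were called higher and 1 lower in high purity, and of 6 endothelial markers 4 and 1. No stromal, epicardial or cardiomyocyte marker was at 0 in all wells of either class. The part of these cells in the stress gene differences was not tested, and in bulk RNA a change in the share of a cell type and a change of RNA per cell cannot be told apart.

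Before day 8 few of the genes differed by the same rule. None was called on day 0 or day 2 by limma, where 1.07% and 5.32% of all genes were called and 6 and 7 of the 10 genes had an unadjusted p under 0.05, as had 6591 and 11298 of the 25664 genes tested. By edgeR's quasi-likelihood test on reads recovered from the TPM, 2 genes were called on day 2, DDIT3 at 1.03 and CHAC1 at 1.16, both higher in high purity. The share of all genes that edgeR called on that day is not given here, so these 2 calls are a description. DDIT3 stood just under the fold threshold on day 2, at 0.98 (SE 0.18, adjusted p = 1.30e-05) by limma. It passed when high purity replicate 4 (1.15) or low purity replicate 2 (1.02), 3 (1.07) or 4 (1.04) was left out.

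In the limma test the first calls were PHGDH and ATF3, on day 4. On that day PHGDH was at 25.97, 23.95, 30.5 and 27.2 TPM in the high and 74.2, 76.1, 78.3 and 78.2 TPM in the low purity wells. The low purity wells were all higher, by -1.48 (SE 0.09, adjusted p = 8.90e-19) in limma, high minus low. ATF3 was at 2.54, 1.73, 2.75 and 0.900 TPM in the high and 6.51, 3.86, 5.17 and 6.74 TPM in the low purity wells, a difference of -1.15 (SE 0.16, adjusted p = 8.45e-08). These were the 2 genes called on day 4, against 7.84% of all genes (4.22% lower), and the ATF3 call was lost at -0.95 without high purity replicate 4. On day 6 ATF3 was the 1 gene called, against 8.8% of all genes (5.19% lower), at 3.27, 4.36, 5.08 and 5.26 TPM in the high and 13.9, 13.3, 14.3 and 23.2 TPM in the low purity wells and -1.62 (SE 0.16, adjusted p = 1.70e-11). PHGDH on day 6 was at 59.4, 60.1, 56.2 and 47.6 against 79.6, 79.1, 80.6 and 103 TPM and was not called.

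Cell type markers differed on these days too. On day 4 the 9 cardiomyocyte markers summed to 3159 to 3872 TPM in the low and 187 to 269 TPM in the high purity wells, and 7 of 9 were called higher in low purity, the opposite of the direction on day 8. Stromal markers summed to 1002 to 1023 against 178 to 265 TPM on day 4, with 5 of 7 called higher in low purity, and epicardial markers to 52.2 to 54.9 against 7.48 to 12.5 TPM, with 3 of 5. On day 6, 6 of 7 stromal and 5 of 5 epicardial markers were called higher in low purity. The part of these cells in the PHGDH and ATF3 differences was not tested.

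**Figure D2:**
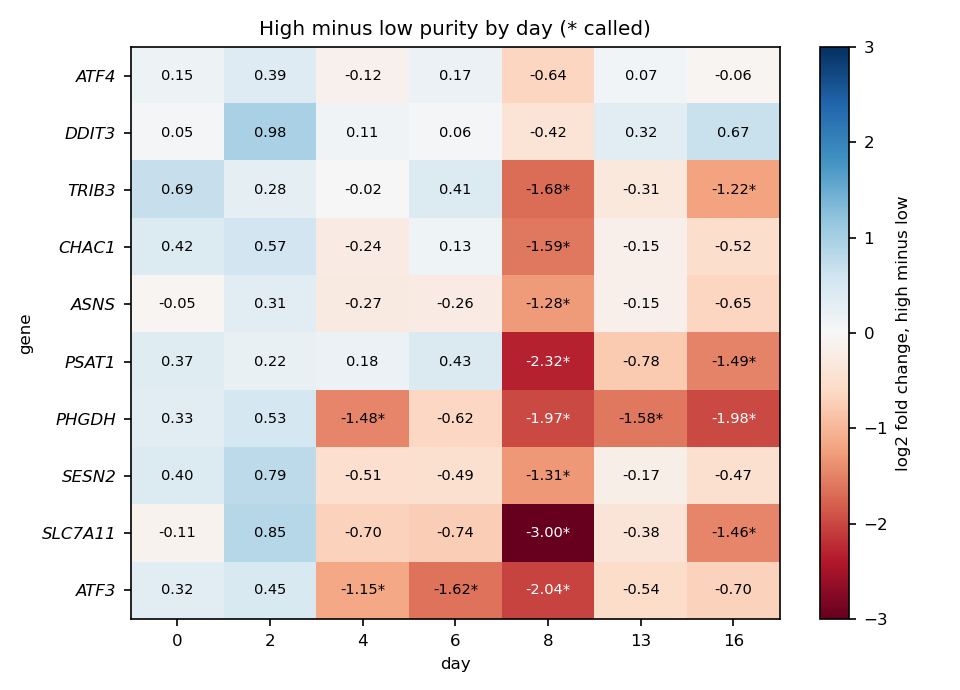
Limma log2 fold change, high minus low purity, for the 10 genes (rows) on the 7 days with 2 or more wells in each class (columns); red is higher in low purity, blue higher in high purity, and a star marks a call. All 10 values are below 0 on day 8, where 8 have a star, while all 10 are above 0 on day 2, where none has.

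After day 8 the classes remained apart in part of the set. On day 13 PHGDH was the 1 gene called, at -1.58 (SE 0.10, adjusted p = 1.28e-16), against 10.8% of all genes (6.23% lower), with 2 high purity wells at 18.5 and 19.8 TPM and 4 low purity wells at 82.2, 56.03, 64.8 and 68.5 TPM. On day 16 PHGDH, PSAT1, SLC7A11 and TRIB3 were called lower in high purity, 4 of 10 genes against 13.4% of all genes (7.65% lower). PHGDH was then at 10.0, 12.3 and 11.2 TPM in the high and 61.8, 52.5 and 47.9 TPM in the low purity wells, PSAT1 at 11.4, 19.8 and 14.0 and 61.1, 42.0 and 47.6 TPM. SLC7A11 was at 1.1, 2.02 and 1.36 and 8.23, 4.38 and 6.84 TPM, and TRIB3 at 2.05, 4.14 and 2.38 and 9.95, 7.90 and 8.29 TPM. No well of one class reached the other in these 4 genes. The differences were -1.98, -1.49, -1.46 and -1.22, with limma adjusted p of 9.76e-06 or less. Stromal marker sums on day 16 were 9617 to 13090.0 in low and 502 to 612 TPM in high purity wells, and their part in these differences was not tested.

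The day 8 difference followed a rise in the low purity wells from day 6. In them SLC7A11, TRIB3, PSAT1, CHAC1 and ASNS rose, 5 of 10 genes against 3.31% of all genes (2.03% higher), and none fell. SLC7A11 went from 7.93, 8.02, 6.08 and 8.23 TPM on day 6 to the day 8 values above, a change of 2.64 (SE 0.13, adjusted p = 4.46e-20) in limma. TRIB3 started from 0.961, 1.82, 2.20 and 0.382 TPM and changed by 2.52 (SE 0.19, adjusted p = 3.44e-14). TRIB3 was thinly covered, with 3 to 178 reads per multi-omic library. PSAT1 started from 42.7, 45.0, 43.5 and 43.8 TPM and changed by 2.35 (SE 0.12, adjusted p = 1.92e-19). All day 8 wells of these 3 genes were above all day 6 wells. CHAC1 started from 0.318, 0.481, 0.408 and 0.741 TPM and changed by 1.63 (SE 0.16, adjusted p = 1.18e-10). ASNS started from 0.785, 0.364, 1.03 and 0.713 TPM, changed by 1.01 (SE 0.18, adjusted p = 2.64e-05), and was lost to the fold threshold without low purity day 6 replicate 2 (0.91) or day 8 replicate 1 (0.97) or 2 (0.94). ATF3 had a change of 0.95 and was called, at 1.14, without day 6 replicate 4. SESN2 (0.93), DDIT3 (0.77), PHGDH (0.57) and ATF4 (0.49) had values above 0 under the fold threshold.

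In the high purity wells none of the 10 genes was called between days 6 and 8, where 5.58% of all genes were. The values ran from -0.78 for PHGDH to 0.54 for ATF3, and 6 of 10 had an unadjusted p under 0.05 in limma, as had 9762 of 25664 genes; edgeR on recovered reads called 0. The difference between the differentiations in this step was itself tested as an interaction. It was called for PSAT1 (-2.75, SE 0.18, adjusted p = 7.73e-16), SLC7A11 (-2.26, SE 0.19, adjusted p = 2.21e-12), TRIB3 (-2.10), CHAC1 (-1.72), PHGDH (-1.35) and ASNS (-1.02), 6 of 10 genes against 4.14% of all genes (2.28% in that direction). The ASNS call was lost in edgeR on recovered reads (adjusted p = 0.0636) and without any of 7 wells, with values of -0.97 and -0.98 without high purity day 6 replicates 3 and 4, -0.98 and -0.97 without high purity day 8 replicates 1 and 4, -0.92 without low purity day 6 replicate 2, and -0.98 and -0.95 without low purity day 8 replicates 1 and 2. Stromal marker sums in the low purity wells were 2972 to 4693 TPM on day 6 and 4707 to 5693 TPM on day 8, and their part in these changes was not tested.

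The high purity differentiation had 1 well on day 10, which allows no test. In it all 10 genes were above all 3 day 8 wells, as were 19.6% of all genes. ASNS was at 3.19 TPM, CHAC1 at 2.02, TRIB3 at 7.75, SLC7A11 at 12.2, SESN2 at 20.47 and ATF3 at 26.7. The 4 low purity wells of day 10 were at 22.5 to 29.5 TPM for SLC7A11 and 32.1 to 34.4 TPM for ATF3, both above that well, and at 1.67 to 2.69 TPM for ASNS, all below it. Over the 16 class and day means, 5 of the 10 genes, TRIB3, CHAC1, PHGDH, SESN2 and SLC7A11, were highest in low purity day 8, as were 3.55% of all genes. ATF4 and PSAT1 were highest in high purity day 0, DDIT3 and ASNS in the single high purity well of day 10, and ATF3 in low purity day 13.

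From day 8 to day 16 the low purity wells fell in SLC7A11 (-2.67, SE 0.14, adjusted p = 7.26e-20), PSAT1 (-1.96, SE 0.13, adjusted p = 1.96e-16) and PHGDH (-1.00), 3 of 10 genes against 6.39% of all genes. The PHGDH value sat at the threshold and was lost without low purity day 8 replicate 1 (-0.97) or 4 (-0.98) or day 16 replicate 2 (-0.99) or 3 (-0.92). It was also lost with the replicate number as a block (-0.996) and with RLE scaling (-0.98). Without day 16 replicate 1, CHAC1 (-1.00) and SESN2 (-1.07) were called as well. In the high purity wells ATF3 (1.51, SE 0.18, adjusted p = 3.77e-09) and DDIT3 (1.26, SE 0.20, adjusted p = 1.54e-06) rose over these days while SLC7A11 (-1.13), PSAT1 (-1.12) and PHGDH (-1.01) fell, 5 of 10 genes against 11.4%. Without high purity day 8 replicate 1, PHGDH (-0.91) and PSAT1 (-0.98) were not called, and without day 16 replicate 1 PHGDH (-0.97) and PSAT1 (-0.99) were not. PHGDH was also lost with RLE scaling (-0.98). ASNS (0.52) was called higher on day 16 by edgeR on recovered reads (1.40, adjusted p = 0.019) and with a pseudocount of 0.1 (1.15).

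The early steps moved individual genes in both differentiations. From day 0 to 2, under CHIR99021, PSAT1 fell by 1.63 on the log2 scale in the high and by 1.48 in the low purity wells. In the high purity wells TRIB3 also fell (-1.11) and DDIT3 rose (1.71), 3 of 10 genes against 16.7% of all genes; in the low purity wells PSAT1 was the 1 gene called, against 17.9%, and CHAC1 (-1.00, just under the threshold) was called without low purity day 0 replicate 3 (-1.04) or 4 (-1.03) or day 2 replicate 1 (-1.07) or 2 (-1.04). The sum of 7 pluripotency markers in the high purity wells was 4410.0 to 4642 TPM on day 0 and 2055 to 2330.0 TPM on day 2, and in the low purity wells 3707 to 3915 and 1209 to 1260.0 TPM. That of 6 primitive streak and mesoderm markers was 2.16 to 3.34 TPM and then 1720.0 to 2094 TPM in the high purity wells, 1.21 to 2.46 TPM and then 1637 to 1778 TPM in the low purity wells, and by day 4 was at 122 to 149 and 19.6 to 25.2 TPM; the part of these changes in the stress gene steps was not tested. From day 2 to 4, after IWP2, SLC7A11 fell from 31.8, 30.5, 27.5 and 26.3 to 1.65, 1.45, 1.85 and 2.47 TPM in the high purity wells (-3.50, SE 0.13, adjusted p = 1.55e-26) and from 14.8, 16.8, 17.9 and 16.0 to 4.35, 3.44, 3.25 and 3.59 TPM in the low purity wells (-1.94, SE 0.13, adjusted p = 1.89e-17). No well of day 4 reached a well of day 2. ATF3 fell in the high purity wells (-2.05) and PHGDH rose in the low purity wells (1.12), which made 2 of 10 genes in each, against 13.7% and 16.9%. From day 4 to 6 ATF3 rose in the low purity wells (1.31), 1 of 10 genes against 6.61%. In the high purity wells limma called none, against 7.96%, with 6 of 10 at an unadjusted p under 0.05, as were 10195 of 25664 genes, while edgeR on recovered reads called 2. The share of all genes that edgeR called in this step is not given here.

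The differentiations also differed in other steps. From day 2 to 4 the interaction was called for PHGDH (-2.01, SE 0.12, adjusted p = 8.58e-18), ATF3 (-1.60), SLC7A11 (-1.55) and SESN2 (-1.30) in limma, each with a lower change in the high purity wells, 4 of 10 genes against 8.93% of all genes (4.58% in that direction). From day 8 to 16 it was called for SLC7A11 (1.54, SE 0.20, adjusted p = 7.19e-08), ATF3 (1.34), DDIT3 (1.08) and CHAC1 (1.07), each with a higher change in the high purity wells, 4 of 10 against 9.17% (4.39% in that direction). The DDIT3 call was lost without high purity day 8 replicate 1 (0.90) or day 16 replicate 2 (0.90). The CHAC1 call was lost without high purity day 8 replicate 2 (0.93) or day 16 replicate 3 (0.90), or low purity day 16 replicate 2 (0.95) or 3 (0.97). None was called over the steps from day 0 to 2 and day 4 to 6 by limma, against 3.22% and 7.51% of all genes, with 4 and 3 of the 10 at an unadjusted p under 0.05, as were 7416 and 8376 of 25664 genes, and edgeR on recovered reads called 0 and 0.

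Other genes of the pathway were read from lists, whose counts on day 8 stand beside 7.5% of all genes called lower and 4.66% called higher in high purity. Of 11 amino acid transporters, 5 were called higher in low purity on day 8 and 0 higher in high purity; the list's median was -0.94. SLC7A5, the large neutral amino acid transporter, was at 134 ± 11.4 TPM in the 4 low and 29.6 ± 2.80 TPM in the 3 high purity wells (means ± SD), a difference of -1.92, and SLC6A9, a glycine transporter, differed by -1.50; SLC7A3, a cationic amino acid transporter, had a value of -0.94 and was not called. Of 12 serine, glycine and folate enzymes, 3 were higher in low and 2 in high purity. ALDH1L2, a mitochondrial folate enzyme, was at 27.7 ± 3.05 against 2.40 ± 0.377 TPM (-2.88), whereas GLDC (1.83) and AMT (1.26), of the glycine cleavage system, were higher in high purity. Of 19 cytosolic aminoacyl-tRNA synthetases, which charge tRNAs with amino acids, 4 were higher in low purity, among them WARS at 143 ± 8.74 against 37.3 ± 7.41 TPM and GARS at 335 ± 22.1 against 112 ± 11.9 TPM, and DARS (1.13) was higher in high purity.

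Of 13 partners and target regulators of ATF4, 4 were higher in low purity on day 8, including JDP2 (-1.72), a partner of related factors, and EIF4EBP1 (-1.54), a repressor of cap-dependent translation. DDIT4, an inhibitor of mTORC1, went the other way: it was called higher in high purity on 6 of 7 days, and on day 8 was at 222 ± 26.5 TPM in the high and 148 ± 14.9 TPM in the low purity wells without being called. None of 18 endoplasmic reticulum chaperone and unfolded protein response genes was called on day 8 in either direction, with a median of 0.00; HSPA5, the main chaperone of that compartment, was at 510.2 ± 25.2 TPM in low and 346 ± 61.9 TPM in high purity wells (-0.34, limma adjusted p = 0.000193, under the fold threshold), and SDF2L1 (-0.44) and CRELD2 (-0.01) had values below 0. None of 16 genes for eIF2, its kinases and its phosphatase was called either. Among 8 NRF2 targets, NQO1, a quinone reductase, was lower in high purity (-2.00) and HMOX1, heme oxygenase, higher (1.00). Of 7 immediate early genes 3 were higher in low purity, JUN (-1.96), EGR1 (-2.20) and DUSP1 (-1.12), and of 13 p53 targets 1 was, FAS (-1.32), while PHLDA3 (-0.67) and CDKN1A (-0.02) were not called. Of 12 proline, alanine, cysteine and glutamine enzymes 1 was called in each direction. GOT1, an aspartate aminotransferase, was higher in high purity (1.06) and GCLM was higher in low purity (-1.24), while PYCR1 (0.12) was not called.

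**Figure D3:**
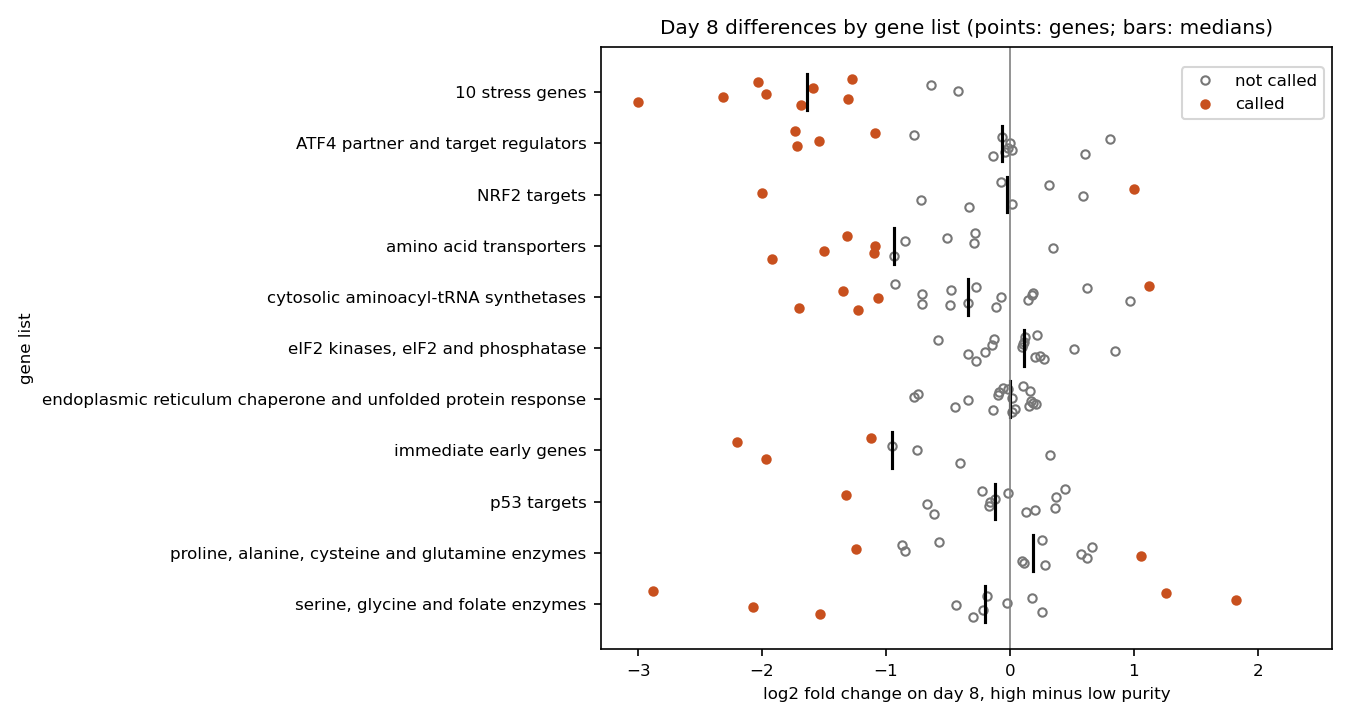
Limma log2 fold change on day 8, high minus low purity (x axis), for the genes of each list (rows); filled points are called, open points are not, and bars are medians. The 10 stress genes have a median of -1.64 and the amino acid transporters of -0.94, and the endoplasmic reticulum list has no filled point.

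The 10 genes did not share a single course. Over the 16 class and day means the 45 pairs had a median Pearson r of 0.47, from -0.64 to 0.89, and 7 pairs were below 0. The closest pair was TRIB3 and ASNS (r = 0.89) and the farthest DDIT3 and PSAT1 (r = -0.64). ATF4 was closest to PSAT1 (0.86), SLC7A11 to PSAT1 (0.84), CHAC1 to SLC7A11 (0.81) and ATF3 to ASNS (0.86). Across wells within a group, over 55 libraries, the median r was 0.14. These r values share libraries, depth and the day order and are descriptions. Among 12871 other genes with a mean of at least 5 TPM, those most like the mean course of the set over the 16 means included ARG2 (r = 0.83), SARS (0.80), GARS (0.79), YME1L1 (0.79), ALDH1L2 (0.77), C1R (0.77), PACSIN2 (0.74), MTHFD2 (0.74) and CUL1 (0.73). ARG2, a mitochondrial arginase, had means of 33.2 TPM in low and 4.99 TPM in high purity on day 8, and MTHFD2, a mitochondrial folate enzyme, 167 and 33.4 TPM.

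The RNA-only experiment gives the same genes in 3 lines, at stages that end on day 6 or 7. From the first to the second stage, by edgeR's quasi-likelihood test with Benjamini-Hochberg adjustment on the counts, DDIT3 rose (1.79, SE 0.19, adjusted p = 8.75e-07) and was higher in 6 of 6 differentiations. CHAC1 (-1.58, SE 0.33, adjusted p = 8.06e-04), TRIB3 (-1.48), PSAT1 (-1.46, SE 0.13, adjusted p = 1.08e-07) and SLC7A11 (-1.45) fell and were lower in 6 of 6. These made 5 of 10 genes, against 25.5% of all genes. DDIT3, as high and low purity library, was at 6.74 and 5.61 TPM in H9, 4.31 and 4.87 TPM in IMR90-4 and 6.10 and 4.33 TPM in WTC11 on day 0 and at 28.3 and 17.0 TPM in H9, 10.8 and 18.2 TPM in IMR90-4 and 17.1 and 11.4 TPM in WTC11 at the second stage. PSAT1 was at 43.9 and 74.6 TPM in H9, 57.3 and 51.2 TPM in IMR90-4 and 73.3 and 73.1 TPM in WTC11 on day 0 and at 15.7 and 21.6 TPM in H9, 18.3 and 15.6 TPM in IMR90-4 and 28.7 and 22.7 TPM in WTC11 at the second stage. Without IMR90-4 the SLC7A11 (-0.68) and TRIB3 (-1.31) calls were lost, and without WTC11 PHGDH (-1.17) was called too.

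From the second to the third stage SLC7A11 fell (-1.81, SE 0.49, adjusted p = 0.0193), 1 of 10 genes against 6.8% of all genes. It was lower in 5 of 6 differentiations, the exception being low purity H9, and the call was lost without IMR90-4 (-1.99) or WTC11 (-0.88), while CHAC1 (-1.04) was called without H9. The SLC7A11 call was also lost with limma on TPM (-1.05, adjusted p = 0.0615) and in edgeR with no replicate block (-1.99, adjusted p = 0.088). From the third to the fourth stage edgeR called none, against 3.64% of all genes, with 3 of 10 at an unadjusted p under 0.05, as were 5046 of 24810 genes; the smallest adjusted p was 0.0558, for ATF3, and DESeq2 called 0.

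**Figure D4:**
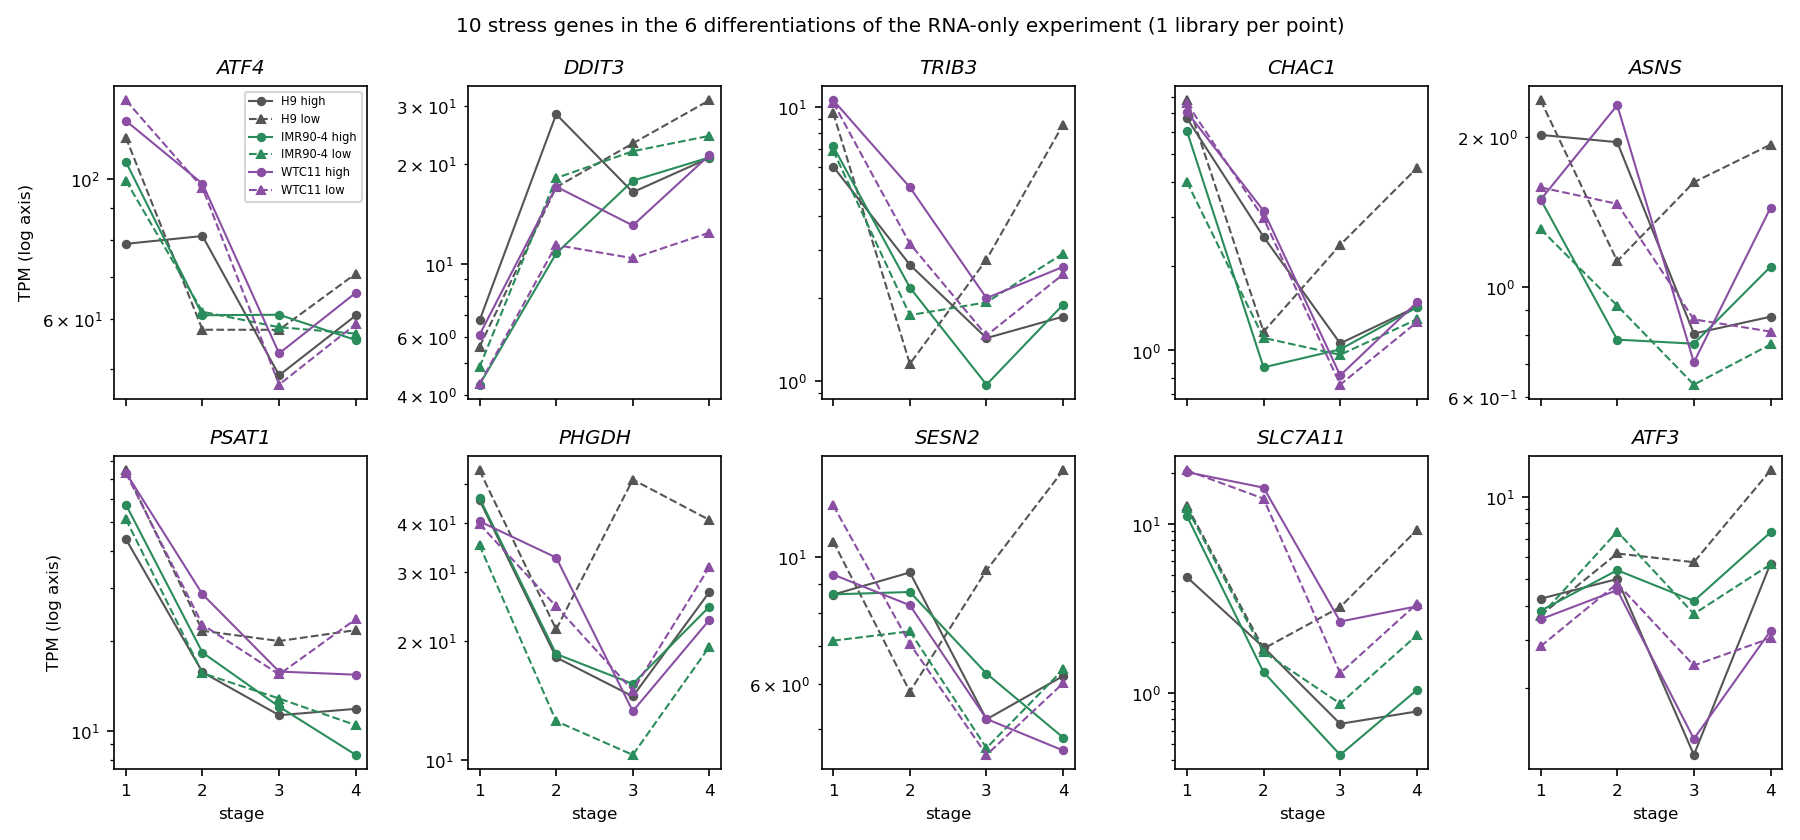
TPM (log axis) by stage for the 10 genes in the 6 RNA-only differentiations, 1 library per point; colors are lines, solid lines with circles high purity, dashed lines with triangles low purity. DDIT3 is higher and PSAT1 lower at stage 2 than at stage 1 in all 6, and the low purity H9 libraries lie above the high purity H9 libraries in all 10 panels at stages 3 and 4.

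Over the 3 lines no gene was called between the purity classes at any stage by edgeR, 0.0% of 24810, and so none of the 10. At the 4 stages 362, 1921, 1828 and 2916 of all genes had an unadjusted p under 0.05, and 0, 0, 1 and 2 of the 10. DESeq2 called 0, 77, 55 and 200 genes at the 4 stages, of which 0, 0, 0 and 0 were among the 10. SLC7A11 at the fourth stage, the largest value of the 10, was -1.49 (SE 0.69, adjusted p = 0.435) in edgeR, and ATF3 at the third was -1.12 (SE 0.42, adjusted p = 0.601). With 3 differentiations a class, differences of this size were not separable from the spread between lines.

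The lines went different ways, and with 1 library per class and line there is no test within a line. In H9 8 of 10 genes were higher in the low purity library at stage 1, where 64.4% of 18743 genes were, and SLC7A11 was so by at least 1 on the log2(TPM + 1) scale, as were 1.21% of all genes. All 10 were higher in low purity at stage 3 and at stage 4, where 39.7% and 42.3% of 18743 genes were. At stage 4 SLC7A11 was at 0.778 TPM in the high and 9.18 TPM in the low purity library, TRIB3 at 1.72 TPM in the high and 8.61 TPM in the low purity library, CHAC1 at 1.43 TPM in the high and 4.46 TPM in the low purity library, SESN2 at 6.19 TPM in the high and 14.2 TPM in the low purity library and ATF3 at 5.69 TPM in the high and 12.5 TPM in the low purity library. These 5 were higher in low purity by at least 1 on that scale, as were 4.64% of all genes. At stage 3 PHGDH (14.5 TPM in the high and 51.4 TPM in the low purity library), SLC7A11 and ATF3 passed that mark, 3 of 10 against 4.51%. At stage 2, before this, 7 of 10 genes were higher in the high and 3 in the low purity H9 library. Of 18743 genes, 48.5% were higher in the low purity library at that stage. None of the 10 passed the mark in either direction, where 5.02% of all genes passed it in low and 4.52% in high purity.

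In IMR90-4 and WTC11 no gene of the 10 passed that mark at any stage, in either direction, where 0.795% to 2.32% of all genes did in a given stage and direction. At stage 4, 6 of 10 were higher in low purity in IMR90-4 and 4 of 10 in WTC11, where 52.0% and 57.9% of all genes were. SLC7A11 was then at 1.04 TPM in the high and 2.19 TPM in the low purity IMR90-4 library, and at 3.25 and 3.36 TPM in WTC11. Whether the lines differ was not tested. Stromal and fibroblast markers summed to 1536 TPM in the low and 115 TPM in the high purity H9 library at stage 4, and to 681 and 76.9 TPM at stage 3. Epicardial markers summed to 151 and 16.3 TPM and cardiomyocyte markers to 363 and 2424 TPM at stage 4. At stage 3 the cardiomyocyte sums went the other way, 352 TPM in the low and 124.5 TPM in the high purity H9 library. For low and high purity at stage 4, stromal sums were 96.8 and 79.2 TPM in IMR90-4 and 112 and 84.2 TPM in WTC11. Cardiomyocyte sums were 5397 and 4569 TPM in IMR90-4 and 1198 and 2465 TPM in WTC11. The part of these cells in the H9 differences was not tested.

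**Figure D5:**
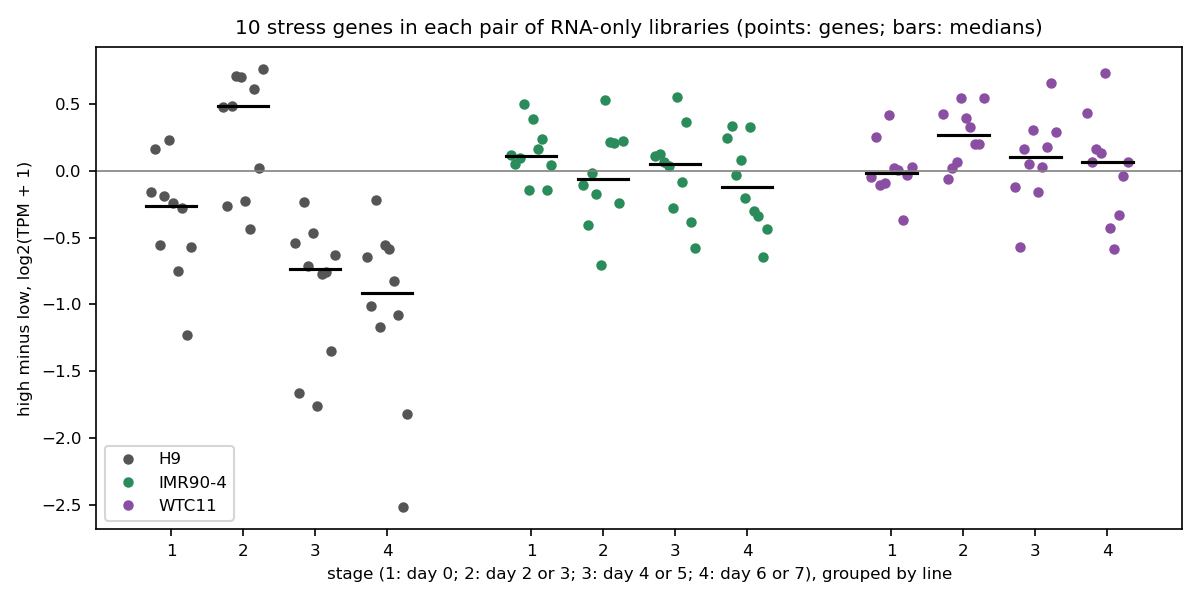
High minus low purity on the log2(TPM + 1) scale (y axis) for each of the 10 genes in the 12 pairs of RNA-only libraries, by stage within each line (x axis); points are genes and bars medians. All points of H9 lie below 0 at stages 3 and 4, while those of IMR90-4 and WTC11 lie on both sides of 0 at every stage.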

How the data were processed

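Reads were processed by the submitters; STAR 2.5.3a, featureCounts 2.0.3 and hg38 are named in the submitters' processing notes. The authors deposited, per the file headers, whole read counts and TPM per gene for both experiments. How TPM was computed is not given in the sources used here. Multi-omic count and TPM names disagreed: for 0 of 56 count columns did the reads fit the like-named TPM, and for 50 they fit a differently named one, so those counts were not tested. The TPM names were used, since 52 of 55 TPM columns were nearest to a library of their own group, against 28 of 55 count columns. In the RNA-only tables all 24 columns matched by name. A total of 36 broken lines of the RNA-only count table were left out.

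Multi-omic TPM were scaled by TMM and tested as log2(value + 1) with limma-trend (limma 3.58.1, R 4.3.3) over 56 libraries in 16 groups, after dropping genes that reached 1 TPM in fewer than 3 libraries. Whole reads were recovered from the TPM for 37221 genes, with 100% of values whole within 0.02 reads, and tested with edgeR 4.0.16 as an alternative. RNA-only counts were tested with edgeR's quasi-likelihood test, with means for 12 line-stage combinations for purity and for 6 differentiations for stage. DESeq2 1.42.0 was an alternative. All adjusted p are Benjamini-Hochberg over all genes tested, and a call needs an adjusted p under 0.05 and a log2 fold change of at least 1. Both fits were tested on simulated data. The 10 genes are described in every comparison; up to 3 genes of each list were named by the number of days called, then by size, and the 10 genes of like course by r, except that some items are not reported here. The genes and lists were chosen with earlier results of these data known. Replicates are wells of 1 differentiation (multi-omic) or lines (RNA-only).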

Additional observations from a re-analysis of the deposited data

Results flagged for a closer look

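In 10 of 110 combinations of gene and group with 4 wells, 1 well stood apart from the other 3 by Dixon's criterion, and chance flags about 1 in 20. These were ASNS in low purity day 10 replicate 4 (1.67 TPM, the others 2.56 to 2.69), ATF3 in low purity day 13 replicate 4 (31.7 TPM, the others 37.4 to 38.6), ATF3 in low purity day 6 replicate 4 (23.2 TPM, the others 13.3 to 14.3), ATF4 in high purity day 4 replicate 3 (51.5 TPM, the others 44.5 to 45.6) and CHAC1 in high purity day 6 replicate 1 (1.54 TPM, the others 0.372 to 0.4934). The others were PHGDH in low purity day 6 replicate 4 (103 TPM, the others 79.2 to 80.6), PSAT1 in low purity day 13 replicate 1 (75.3 TPM, the others 41.3 to 45.1), PSAT1 in low purity day 4 replicate 3 (58.9 TPM, the others 62.5 to 63.1), SESN2 in low purity day 10 replicate 3 (23.2 TPM, the others 24.3 to 24.5) and SLC7A11 in low purity day 6 replicate 3 (6.08 TPM, the others 7.93 to 8.23).

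For some genes the change over a step differed between the differentiations by the limma interaction; values are the high purity change minus the low purity change on the log2 scale. From day 2 to 4 these were ATF3 (-1.60, adjusted p = 1.93e-07), PHGDH (-2.01, adjusted p = 8.58e-18), SESN2 (-1.30, adjusted p = 4.47e-11) and SLC7A11 (-1.55, adjusted p = 2.67e-09), 4 of 10 genes against 8.93% of all genes. From day 6 to 8 they were ASNS (-1.02, adjusted p = 0.00519), CHAC1 (-1.72, adjusted p = 7.10e-07), PHGDH (-1.35, adjusted p = 4.19e-11), PSAT1 (-2.75, adjusted p = 7.73e-16), SLC7A11 (-2.26, adjusted p = 2.21e-12) and TRIB3 (-2.10, adjusted p = 2.60e-07), 6 of 10 against 4.14%. From day 8 to 16 they were ATF3 (1.34, adjusted p = 5.35e-05), CHAC1 (1.07, adjusted p = 0.00142), DDIT3 (1.08, adjusted p = 0.00256) and SLC7A11 (1.54, adjusted p = 7.19e-08), 4 of 10 against 9.17%.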

How the results depend on the processing

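Among the 10 genes, no value called in the main test or under an alternative had the opposite direction in the other. Values called in neither were not checked for direction. The 8 genes called on day 8, high minus low, numbered 8 without each of 7 wells in turn. Without the fold threshold the number called among the 10, with the number among all genes, was 6 for day 16 minus day 8, low purity (from 3; all genes 8284), 7 for day 2 minus day 0, high purity (from 3; all genes 13010), 7 for day 2 minus day 0, low purity (from 1; all genes 13700), 10 for day 4 minus day 2, high purity (from 2; all genes 11886), 7 for day 4 minus day 2, low purity (from 2; all genes 12747), 4 for day 6 minus day 4, high purity (from 0; all genes 8467), 4 for day 6 minus day 4, low purity (from 1; all genes 9061), 5 for day 8 minus day 6, high purity (from 0; all genes 7699), 10 for day 8 minus day 6, low purity (from 5; all genes 6607), 3 for the interaction over day 0 to 2 (from 0; all genes 4789), 7 for the interaction over day 2 to 4 (from 4; all genes 7778), 2 for the interaction over day 4 to 6 (from 0; all genes 6037), 7 for the interaction over day 8 to 16 (from 4; all genes 6872), 4 for high minus low, day 0 (from 0; all genes 3757), 3 for high minus low, day 13 (from 1; all genes 9203), 9 for high minus low, day 16 (from 4; all genes 11038), 7 for high minus low, day 2 (from 0; all genes 9611), 4 for high minus low, day 4 (from 2; all genes 9449), 6 for high minus low, day 6 (from 1; all genes 10229), 8 for stage 2 minus stage 1 (from 5; all genes 12331) and 4 for stage 3 minus stage 2 (from 1; all genes 3953); these are of 25664 genes by day and 24810 by stage. With a pseudocount of 0.1 it was 2 for day 2 minus day 0, low purity (from 1), 4 for day 4 minus day 2, high purity (from 2), 2 for day 6 minus day 4, high purity (from 0) and 2 for high minus low, day 2 (from 0). With edgeR on recovered reads it was 2 for day 2 minus day 0, low purity (from 1), 5 for day 4 minus day 2, high purity (from 2), 2 for day 6 minus day 4, high purity (from 0) and 2 for high minus low, day 2 (from 0). With no TMM scaling it was 1 for day 6 minus day 4, high purity (from 0; all genes 2147, from 2044) and 1 for day 8 minus day 6, high purity (from 0; all genes 1754, from 1433). With limma on TPM it was 0 for stage 3 minus stage 2 (from 1). Numbers among all genes are not given here for the pseudocount, for edgeR, for limma on TPM or for leaving out 1 library. Leaving out 1 library at a time gave 3 to 5 for day 16 minus day 8, high purity, 2 to 5 for day 16 minus day 8, low purity, 1 to 2 for day 2 minus day 0, low purity, 0 to 2 for the interaction over day 0 to 2, 0 to 1 for high minus low, day 2, 1 to 2 for high minus low, day 4, 3 to 6 for stage 2 minus stage 1 and 0 to 2 for stage 3 minus stage 2. Without TMM scaling the median of all genes on day 8, high minus low, was -0.18. ASNS, CHAC1 and TRIB3 were limited by depth, with medians of 11, 25 and 38 reads and minimums of 2, 5 and 3 reads in the multi-omic libraries. Depth also differed by group. Low purity wells held 7705810 to 8769296 reads on day 6 and 9849304 to 12872871 on day 8. High purity wells held 9775490 to 13935494 on day 6 and 11959392 to 18017961 on day 8. The part of depth in the calls was not tested.

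High and low purity wells with the same day and replicate number did not deviate together: over 24 pairs the correlation of deviations ran from -0.02 to 0.03 and 0 passed 0.1. The 2 wells of a pair came from different differentiations, and wells of different days were not paired. With the replicate block the number called on day 8 was 8, and for day 16 minus day 8 in low purity it was 2 in place of 3; every other multi-omic count among the 10 was as without the block. With no replicate block the RNA-only count for stage 3 minus stage 2 was 0 in place of 1.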
